A study of Mus musculus with 6 samples.

Results

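The genes described here encode the synaptic vesicle release machinery and its close relatives in the mouse anterior hypothalamus. They were taken from the deposited table by symbol alone. The pattern covered synaptotagmins, syntaxins, SNAP and VAMP proteins, synapsins, SV2 proteins, Rab3 GTPases, RIM proteins, Munc13 proteins (Unc13), complexins, syntaxin-binding proteins, synaptogyrins and synaptophysin (Syp). It found 86 of 13724 table entries, with 85 distinct symbols, because Rims1 stands on 2 entries. The Rab3 and Snap patterns also took in Rab30 to Rab39b and Snap91, which belong to other families, and 75 entries remained without them. Wild type C57Bl6/J mice were warmed, and the labels give the tissue as preoptic neurons, dissected from 0.5 mm sections of the anterior hypothalamus. Both groups came from warmed mice: 3 libraries of total RNA (Input) and 3 of RNA precipitated with an antibody against ribosomal protein S6 phosphorylated at residues 244 and 247 (IP). Each of 3 numbered warm challenges gave 1 library of each kind. Neither ages nor the number of animals behind a library were stated in the labels, so p-values measure the spread between these libraries. No group at another temperature was analysed here, so a difference between the fractions is not tied to warmth.

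A synaptic vesicle fuses when a SNARE protein on its membrane, a VAMP, zips together with syntaxin and SNAP-25 on the presynaptic membrane. Munc18 and Munc13 proteins prepare this step, complexins hold it, and synaptotagmins trigger it when calcium enters. RIM proteins and Rab3 bring vesicles to the active zone, and synapsins hold the reserve of vesicles. Related SNAREs of the same families serve general secretion, endosomes, lysosomes, autophagosomes and the Golgi apparatus in most cell types. Phosphorylation of S6 rises in active neurons, so the IP is meant to enrich the RNA on ribosomes of active cells.

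Values are RPKM, reads scaled for both the length of a gene and the depth of a library, so levels can be compared between genes. Folds are differences (IP minus Input) of log2(RPKM + 1), which understates the change of low genes, and were tested with limma over the 12328 genes that reached 1 RPKM in 3 libraries or more. A gene was called at an adjusted p under 0.05 (Benjamini-Hochberg over all these genes). The median fold of all genes tested was -0.18, and median scaling of the libraries moved it to -0.0053, so a fold of a member is to be read against that shift. The IP library of warm challenge 1 stood apart from the other 5 on the second principal component (-49.0 against -10.01 to 19.9). The total of listed RPKM lay between 374708 and 496125 per library. The sequencing depth is unknown. In simulated data with 3 libraries per fraction, limma recovered 27% of 100 genes changed 2-fold and 71% of 100 changed 4-fold among 12328 genes. The simulation drew independent noise per gene, with no shift of all genes and no library that stood apart. These rates are thus a rough guide, and a member that was not called may still differ.

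Across the members, the genes of vesicle release itself were not called in either direction in the fit without the warm challenge as a block. The calls fell on their relatives that serve general secretion or other compartments and on Rab genes of other families. Of 83 members tested, 0 were higher and 7 were lower in IP by limma, against 0.892% higher and 3.29% lower of all genes tested. At an unadjusted p under 0.05 the members held 3 higher and 19 lower, against 5.04% and 19.3% of all genes. The 7 were Vamp3, Stx17, Stxbp3a, Snap23 and Stxbp2, and the 2 Rab genes of other families, Rab31 and Rab33b. With the libraries scaled to a common median, 3 members were lower (Vamp3, Rab31 and Rab33b) and 1 was higher (Sv2a), against 0.835% and 0.925% of all genes. The median fold of the members was -0.14, close to the median of all genes. The remaining 3 members, Rab3d, Stx11 and Rab32, were below the level required for the test. Quantile normalization left 0 higher and 3 lower, against 1.05% and 1.01% of all genes. With the warm challenge as a block, 7 were lower and 1 higher, against 3.99% and 1.33%, and with that block plus median scaling 3 were lower and 2 higher, against 1.35% and 1.7%. Over the 3 pairs, 35 of the 83 were lower in IP each time and 14 higher each time, against 37.5% and 14.0% of all genes.

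In the 6 presynaptic lists together (neuronal SNAREs, SNARE regulators, priming and active zone genes, Rab3 genes, synaptotagmins, and vesicle membrane genes with synapsins), 52 of 53 members were tested and 0 were called by limma, against 0.892% higher and 3.29% lower of all genes. At an unadjusted p under 0.05, 3 were higher and 5 lower, against 5.04% and 19.3%. These shares of all genes apply to each unadjusted count given below. With the block, and also with median scaling, 1 of the 52 was higher and 0 lower, and without IP 1, 2 were higher and 1 lower. Their median fold was 0.020, and 0.19 after median scaling. The 3 IP libraries lay below the 3 Inputs for 9 of the 52 and above them for 2, against 23.5% and 6.85% of all genes tested. Rab3il1, among the 9, passed the filter through its Inputs alone, so its place there was fixed in advance.

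**Figure D1:**
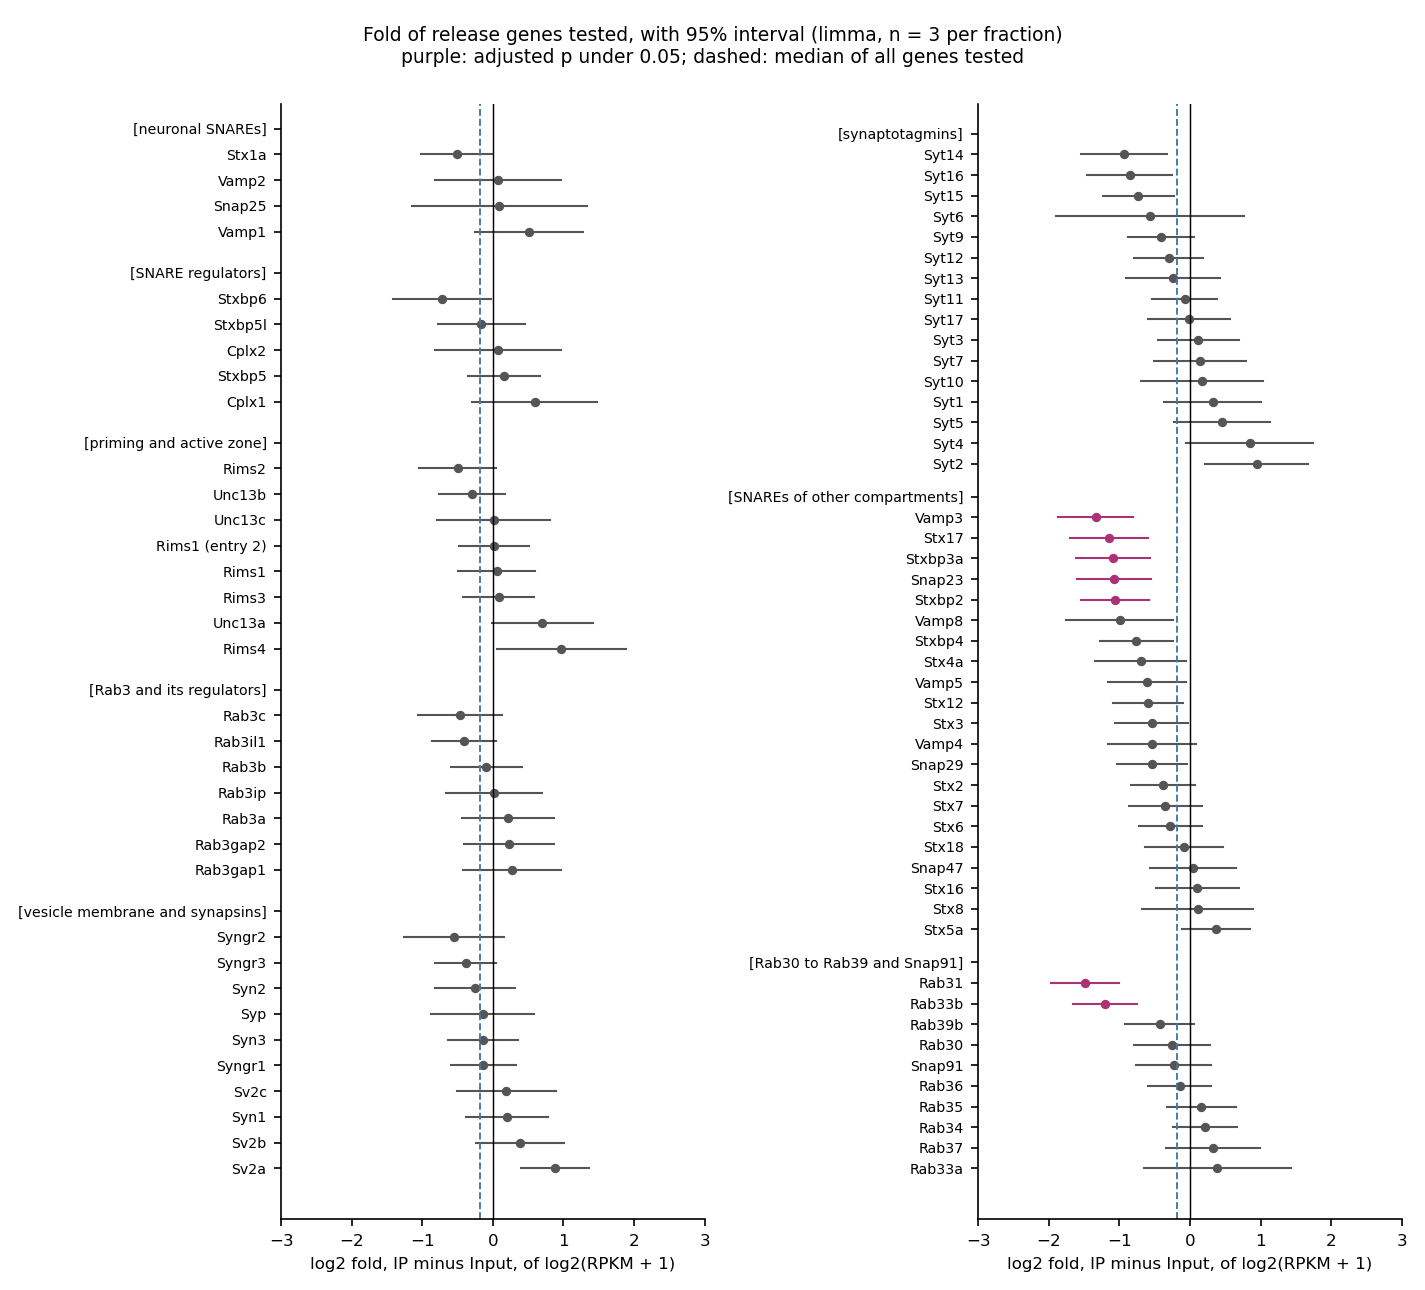
Log2 fold (IP minus Input, x axis) of members tested, by list, with its 95% interval from limma over 3 libraries per fraction; the 7 members at an adjusted p under 0.05 are purple and the dashed line marks the median of all genes tested, -0.18. The purple points all lie below -1 on the x axis and sit in the 2 lists at the lower right, while the intervals of most presynaptic genes include 0.

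The neuronal SNAREs included some of the most abundant transcripts of the tissue, and 0 of 5 tested were called by limma (1, Stx1a, was lower at an unadjusted p under 0.05). Snap25, the plasma membrane SNARE that supplies a pair of helices to the fusion complex, ranked 3 of all table entries by its Input mean. Its level was 2790.1, 3127 and 4144 RPKM in Inputs 1, 2 and 3 and 2063, 3948 and 5392 RPKM in IP 1, 2 and 3. The lowest and the highest of the 6 values were both IP libraries, and the fractions overlapped (log2 fold 0.094, 95% interval -1.14 to 1.33, limma adjusted p = 0.944). Snap25 alone made up 37.8% to 44.8% of the summed RPKM of all members in the Inputs and 31.3% to 48.2% in the IP libraries.

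Vamp2, the main vesicle SNARE of the forebrain, stood at 702, 548 and 736 RPKM in the Inputs and at 476, 623 and 1115 RPKM in the IP libraries, again with overlap (log2 fold 0.075, 95% interval -0.82 to 0.97). Vamp1, its close paralog, stood at 65.7, 91.2 and 100.1 RPKM in the Inputs and 72.4, 153 and 160.0 RPKM in the IP libraries. It was higher in IP in each of the 3 pairs, although IP 1 lay among the Inputs (log2 fold 0.52, limma adjusted p = 0.388). Stx1a, a syntaxin of the presynaptic membrane at a much lower level, had 10.5, 10.3 and 7.76 RPKM in the Inputs and 7.55, 5.39 and 6.20 RPKM in the IP libraries, all below the Inputs (log2 fold -0.51, adjusted p = 0.1999 by limma). It was not called.

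**Figure D2:**
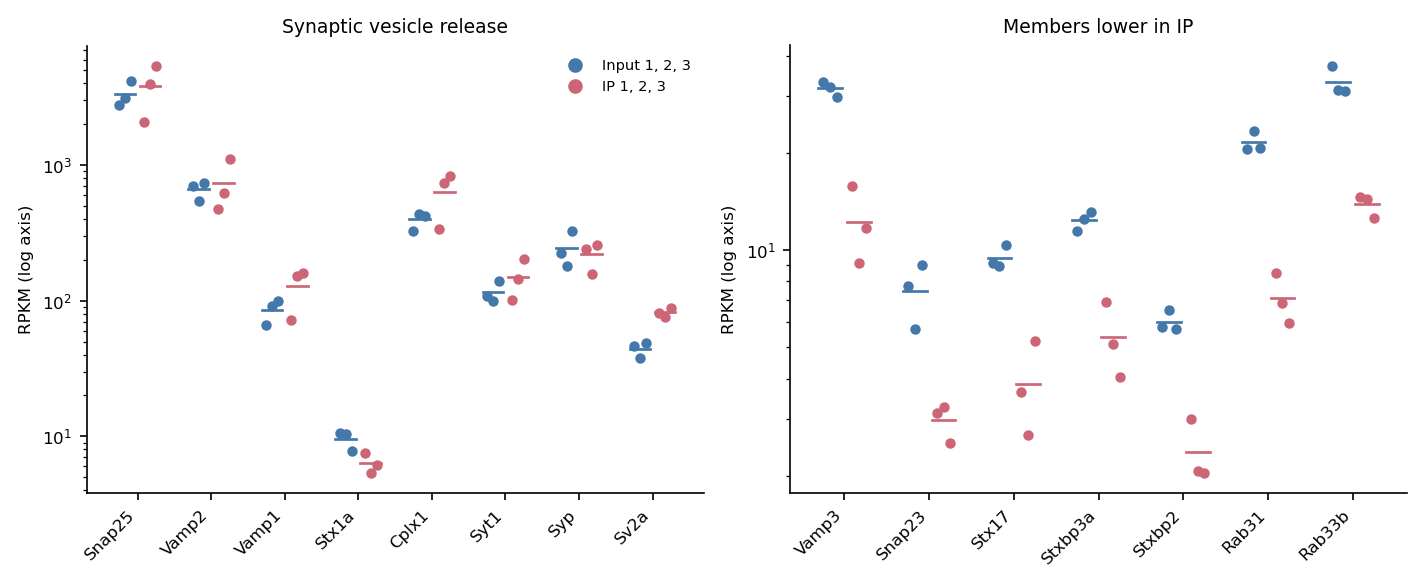
RPKM on a log axis of 8 release genes (left) and of the 7 members called lower in IP (right), with 1 point per library (blue Input, red IP, in the order of warm challenge 1, 2, 3) and a line at each mean. On the left the fractions overlap except for Stx1a (IP below) and Sv2a (IP above); on the right every IP point lies below every Input point of its gene.

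The regulators of these SNAREs held no call among 6 tested, and 1 of them (Stxbp6) had an unadjusted p under 0.05. Cplx1, the complexin of many inhibitory and projection neurons, had 329, 438 and 425 RPKM in the Inputs and 340.2, 738 and 836 RPKM in the IP libraries. It was thus near the Inputs in IP 1 and well above them in IP 2 and IP 3 (log2 fold 0.59, limma adjusted p = 0.396, and 0.0707 without IP 1). Cplx2, its paralog, had a log2 fold of 0.071 with a 95% interval of -0.82 to 0.96. Stxbp5 and Stxbp5l, the tomosyns that compete for syntaxin, had log2 folds of 0.16 and -0.17. Stxbp6 (amisyn), another syntaxin binder, had 42.2, 52.7 and 68.8 RPKM in the Inputs and 20.6, 38.2 and 42.1 RPKM in the IP libraries. The IP values lay below all Inputs, the highest IP value just so, and the gene was not called (log2 fold -0.72, limma adjusted p = 0.193).

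Priming and active zone genes were 8 entries, of which 0 were called by limma and 1 had an unadjusted p under 0.05. Unc13a (Munc13-1), the main priming factor of central synapses, had 8.99, 8.04 and 14.9 RPKM in the Inputs and 23.7, 11.3 and 19.3 RPKM in the IP libraries. It was higher in IP in all 3 pairs, with overlap between the fractions because Input 3 exceeded IP 2 (log2 fold 0.70, limma adjusted p = 0.212). Unc13b and Unc13c had log2 folds of -0.30 and 0.011. The active zone scaffold Rims1 gave nearly the same result on its 2 entries, with log2 folds of 0.054 and 0.020. Rims2 had -0.50 and Rims3, a short RIM isoform gene, 0.083. Rims4, another short form, had 1.35, 0.975 and 0.327 RPKM in the Inputs and 2.06, 1.20 and 5.91 RPKM in the IP libraries. Its fold of 0.97 was the largest positive one of the 83 members tested, but IP 3 alone held the high value (limma adjusted p = 0.180).

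Among Rab3 genes and their regulators, 7 of 8 were tested, and 0 had an adjusted or an unadjusted p under 0.05 by limma. Rab3a, the GTPase of synaptic vesicles, had 421, 384 and 368 RPKM in the Inputs and 379, 524 and 471 RPKM in the IP libraries (log2 fold 0.22, 95% interval -0.44 to 0.87). Rab3c had 149, 168 and 185 RPKM in the Inputs and 154, 95.6 and 119.8 RPKM in the IP libraries. IP 1 fell among its Inputs and the other 2 IP libraries below them (log2 fold -0.46, limma adjusted p = 0.319). Rab3b, another vesicle Rab3, had a log2 fold of -0.095. Rab3ip and Rab3il1, both exchange factors, had log2 folds of 0.020 and -0.41. Rab3il1 had 1.36 to 1.95 RPKM in the Inputs and 0.970 to 0.987 RPKM in the IP libraries. It reached 1 RPKM only in the Inputs, so the filter fixed that its IP values lay below them. Rab3gap1 and Rab3gap2, the 2 subunits of the GTPase-activating complex, were high in IP 1 alone. Rab3gap1 had 28.5 RPKM there against 15.96 and 11.2 RPKM in IP 2 and IP 3 and 13.6 to 15.1 RPKM in the Inputs. Rab3gap2 had 31.7 RPKM there against 18.2 and 15.1 RPKM in the other IP libraries and 16.2 to 20.1 RPKM in the Inputs. Rab3d, a form of secretory cells outside the brain, was not tested at 0.806 to 1.97 RPKM in the Inputs and 0.305 to 0.710 RPKM in the IP libraries.

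Synaptotagmins, the C2-domain proteins among which the calcium sensors of release are found, had 16 members tested and 0 called by limma. At an unadjusted p under 0.05, 1 was higher and 3 lower, near the 5.04% and 19.3% of all genes. Syt1, the fast calcium sensor of most forebrain synapses, had 108, 99.3 and 141 RPKM in the Inputs and 101, 145 and 203 RPKM in the IP libraries (log2 fold 0.32, 95% interval -0.36 to 1.01). Syt2, the fast sensor of hindbrain and many inhibitory synapses, had 5.95, 6.84 and 9.54 RPKM in the Inputs and 10.6, 12.5 and 25.3 RPKM in the IP libraries. Every IP value of Syt2 lay above every Input value, by a little for IP 1 (log2 fold 0.95, SE 0.33, limma adjusted p = 0.119). Without IP 1 it was called (log2 fold 1.18, limma adjusted p = 0.0458), where 3.62% of all genes were called higher. It was also called when blocking by warm challenge was joined to median scaling (limma adjusted p = 0.0430). The block alone (limma adjusted p = 0.0504), median scaling alone (0.0973) and quantile normalization (0.0927) did not call Syt2, nor did any omission other than that of IP 1. Syt4, a form linked to dense core vesicles and induced by activity, had 83.0, 68.7 and 55.3 RPKM in the Inputs. Its IP values were 240.5, 101 and 76.4 RPKM, so that the excess rested mostly on IP 1 (log2 fold 0.84, limma adjusted p = 0.230, and 0.348 without IP 1).

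At the other end of the family stood Syt14, Syt15 and Syt16. They lack the residues for calcium binding, but so does Syt11, whose fractions overlapped. All IP values lay below all Inputs for Syt14, Syt15, Syt16 and Syt9. That is 4 of 16 synaptotagmins, against 23.5% of all genes tested. Syt16 had 11.9, 12.3 and 21.6 RPKM in the Inputs and 6.29, 8.04 and 8.89 RPKM in the IP libraries (log2 fold -0.86, limma adjusted p = 0.0986). Syt14 had 3.41, 2.67 and 3.81 RPKM in the Inputs and 1.57, 1.78 and 0.551 RPKM in the IP libraries (log2 fold -0.94, limma adjusted p = 0.0791). Syt15 had 2.17, 1.66 and 2.38 RPKM in the Inputs and 1.12, 0.531 and 0.913 RPKM in the IP libraries (log2 fold -0.73, limma adjusted p = 0.0903, and 0.0487 without IP 1). None of the 3 was called over the 6 libraries. Syt11, a form without calcium binding, was flat at 67.9 to 71.8 RPKM in the Inputs and 63.9 to 69.8 RPKM in the IP libraries. Syt6 varied more between warm challenges than between fractions, with 12.3, 10.0 and 32.5 RPKM in the Inputs and 6.24, 5.91 and 29.5 RPKM in the IP libraries (log2 fold -0.56). Syt9, a calcium sensor in some neurons, had 6.27 to 7.97 RPKM in the Inputs and 5.08 to 5.49 RPKM in the IP libraries, all lower (log2 fold -0.41, limma adjusted p = 0.256). Log2 folds of the remaining 7 were -0.30 for Syt12, -0.24 for Syt13, -0.015 for Syt17, 0.12 for Syt3, 0.14 for Syt7, 0.18 for Syt10 and 0.46 for Syt5, and the fractions overlapped for each.

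Of 10 vesicle membrane genes and synapsins tested, 0 were called by limma, and 1, Sv2a, had an unadjusted p under 0.05. Sv2a, the widely expressed SV2 glycoprotein of vesicles and the target of the drug levetiracetam, had 46.4, 37.9 and 48.4 RPKM in the Inputs and 81.6, 75.6 and 88.7 RPKM in the IP libraries. Every IP value lay well above the highest Input. Its log2 fold of 0.88 (SE 0.22, 95% interval 0.39 to 1.37) missed the threshold over the 6 libraries (limma adjusted p = 0.0543). It passed when the fit was blocked by warm challenge (adjusted p = 0.0468) and after median scaling (adjusted p = 0.0460), while quantile normalization gave 0.0775. Without IP 1 the adjusted p was 0.0324, and without any 1 of the other 5 libraries it lay between 0.115 and 0.240.

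The other vesicle genes lay closer to 0. Sv2b had 5.96, 5.56 and 8.57 RPKM in the Inputs and 6.88, 7.80 and 13.0 RPKM in the IP libraries (log2 fold 0.38), and Sv2c had a log2 fold of 0.19. Syp, synaptophysin, had 225, 179.9 and 329 RPKM in the Inputs and 241, 158 and 259 RPKM in the IP libraries (log2 fold -0.15, 95% interval -0.88 to 0.59). Of the synapsins, Syn1 had 175, 149 and 186 RPKM in the Inputs and 239, 175 and 177 RPKM in the IP libraries (log2 fold 0.20). Syn2 had 126, 117 and 109.8 RPKM in the Inputs and 124, 99.2 and 78.2 RPKM in the IP libraries (log2 fold -0.25), and Syn3 had a log2 fold of -0.14. Syngr3, a neuronal synaptogyrin, had nearly equal values within each fraction, 41.6 to 43.0 RPKM in the Inputs and 31.1 to 32.9 RPKM in the IP libraries. Its log2 fold of -0.39 was not called (limma adjusted p = 0.257), and Syngr1 and Syngr2 had -0.14 and -0.56.

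**Figure D3:**
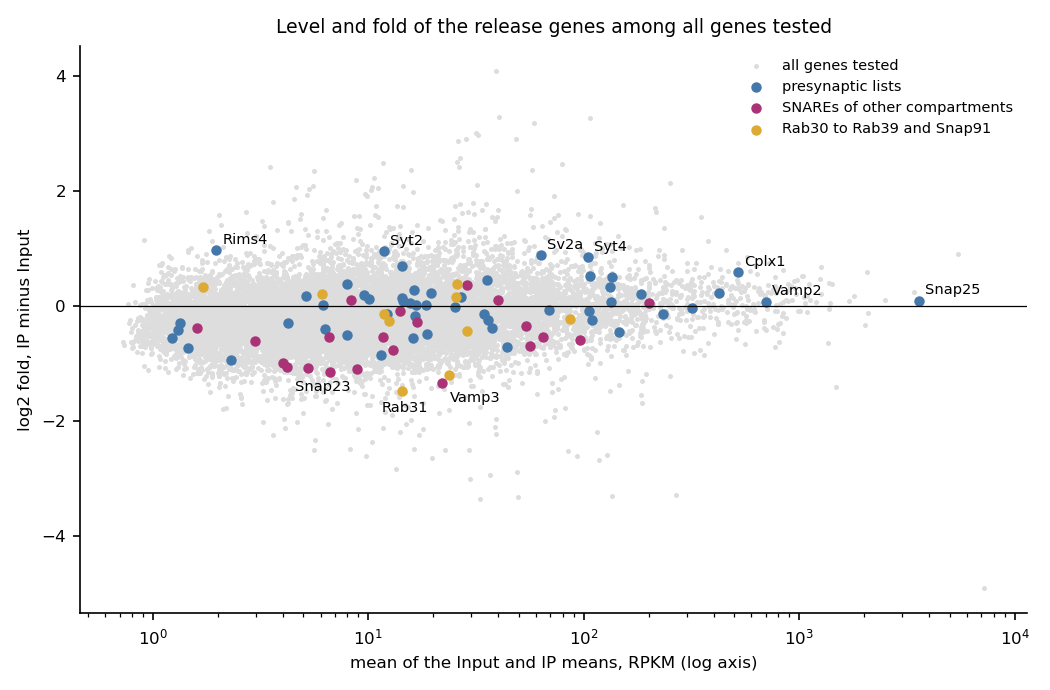
Log2 fold (IP minus Input) against the mean of the Input and IP means in RPKM on a log axis, for all 12328 genes tested (grey) and the members by list. Snap25 lies at the far right near a fold of 0, and Sv2a and Syt2 lie near 0.9. The SNAREs of other compartments (purple) lie below 0 for 17 of 21 genes, against 8040 of all 12328 genes tested.

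The SNAREs and binding proteins of other compartments held 5 of the 7 lower calls. The list has this name although it also holds plasma membrane genes of general secretion, such as Stx4a and Stxbp3a. Of 21 members tested 5 were lower and 0 higher by limma, against 3.29% and 0.892% of all genes. At an unadjusted p under 0.05, 12 were lower and 0 higher, against 19.3% and 5.04% of all genes. The median fold was -0.54, or -0.37 after median scaling. Of the 21 folds 17 were negative, against 8040 of the 12328 genes tested. All IP libraries lay below all Inputs for 13 of the 21, against 23.5% of all genes. Of the members tested here, Snap47, Stx16, Stx8 and Stx5a, a Golgi syntaxin, had folds above 0, the highest 0.37 for Stx5a and the next 0.11 for Stx8, an endosomal syntaxin.

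Vamp3 (cellubrevin), the vesicle SNARE of endosome recycling and of secretion in glia and other cells, had the largest negative fold of this list. It had 33.3, 32.0 and 29.9 RPKM in the Inputs and 15.8, 9.13 and 11.7 RPKM in the IP libraries, and the highest IP value was well under the lowest Input. The log2 fold was -1.34 (SE 0.24, limma adjusted p = 0.0263), and the call held after median scaling (adjusted p = 0.0456). Snap23, the SNAP-25 homolog found in most cells, had 7.77, 5.70 and 8.98 RPKM in the Inputs and 3.14, 3.28 and 2.53 RPKM in the IP libraries (log2 fold -1.08, SE 0.23, limma adjusted p = 0.0412). Stx17, the syntaxin that fuses autophagosomes with lysosomes, had 9.16, 8.90 and 10.4 RPKM in the Inputs and 3.64, 2.67 and 5.22 RPKM in the IP libraries (log2 fold -1.14, SE 0.25, limma adjusted p = 0.0410).

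Stxbp3a and Stxbp2, 2 genes of the Munc18 family, were lower too. Stxbp3a (Munc18c), which acts with syntaxin 4 at the plasma membrane, had 11.5, 12.5 and 13.1 RPKM in the Inputs and 6.93, 5.13 and 4.05 RPKM in the IP libraries (log2 fold -1.09, SE 0.23, limma adjusted p = 0.0392). Stxbp2 (Munc18-2), which serves granule secretion in blood and epithelial cells, had 5.79, 6.51 and 5.70 RPKM in the Inputs and 3.01, 2.07 and 2.05 RPKM in the IP libraries (log2 fold -1.06, SE 0.22, limma adjusted p = 0.0341). After median scaling the adjusted p of Snap23, Stx17, Stxbp3a and Stxbp2 lay between 0.0701 and 0.0782, so these 4 calls ended.

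Among the members of the same list that were not called, Stx4a, the plasma membrane syntaxin of general secretion, had 54.9, 75.6 and 77.3 RPKM in the Inputs and 28.3, 50.8 and 50.6 RPKM in the IP libraries (log2 fold -0.70, limma adjusted p = 0.173). Stx12, an endosomal syntaxin, had 102, 113 and 131 RPKM in the Inputs and 78.3, 71.7 and 76.9 RPKM in the IP libraries (log2 fold -0.60, limma adjusted p = 0.143). Both had every IP value below every Input value. Vamp8, a SNARE of endosomes and lysosomes, had 8.86, 5.10 and 3.26 RPKM in the Inputs and 1.52, 1.91 and 3.40 RPKM in the IP libraries, with overlap through pair 3 (log2 fold -0.997, limma adjusted p = 0.116). The binding protein gene Stxbp4 had a log2 fold of -0.76 (limma adjusted p = 0.0888). The other members tested, Vamp4, Vamp5, Snap29, Stx2, Stx3, Stx6, Stx7 and Stx18, had folds between -0.61 for Vamp5 and -0.087 for Stx18.

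Of the entries of other families that the pattern took in, 2 of 10 tested were lower and 0 higher by limma, against 3.29% and 0.892% of all genes. Rab31, an endosomal Rab GTPase, had 20.7, 23.4 and 20.7 RPKM in the Inputs and 8.48, 6.88 and 5.96 RPKM in the IP libraries. Its log2 fold of -1.49 (SE 0.21, limma adjusted p = 0.0127) was the largest negative one of the 83 members tested. Rab33b, a Golgi and autophagy Rab, had 37.2, 31.4 and 31.1 RPKM in the Inputs and 14.6, 14.5 and 12.6 RPKM in the IP libraries (log2 fold -1.20, SE 0.20, limma adjusted p = 0.0231). Both calls held after median scaling (adjusted p = 0.0235 and 0.0424) and quantile normalization. Rab33a, its paralog, had 20.9, 24.8 and 15.6 RPKM in the Inputs and 10.7, 44.8 and 38.1 RPKM in the IP libraries, with IP 1 on the other side of the Inputs (log2 fold 0.39, limma adjusted p = 0.657, and 0.0313 without IP 1). The other 7 (Rab30, Rab34, Rab35, Rab36, Rab37, Rab39b and Snap91) had folds between -0.43 for Rab39b and 0.33 for Rab37.

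These calls depend on the set of libraries. Without IP 1, 8 members were lower and 3 higher, against 10.2% and 3.62% of all genes then tested. The 7 lower genes were among the 8, with Syt15 added, and the 3 higher ones were Sv2a, Syt2 and Rab33a. Without Input 1, 2 or 3 no member tested was called, and without IP 2 or IP 3 only Rab31 was (adjusted p = 0.0496 and 0.0463). The highest adjusted p in any omission was 0.0877 for Rab31, 0.127 for Vamp3 and Rab33b, 0.157 for Stx17, 0.1604 for Stxbp3a, 0.162 for Stxbp2 and 0.168 for Snap23. The 7 folds stayed negative in each of these omissions. The calls of all genes fell as well, from 516 to between 21 and 94 in the 5 omissions other than IP 1, and rose to 1693 without IP 1.

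A ratio of 2 genes within 1 library does not depend on how libraries are scaled. Ratios were computed for 8 pairs of related members, picked after the values had been seen, and are a description with no test. Vamp2 exceeded Vamp3 by 21.1, 17.1 and 24.6 times in the Inputs and by 30.1, 68.3 and 95.2 times in the IP libraries. Snap25 exceeded Snap23 by 359, 549 and 462 times in the Inputs and by 658, 1204 and 2130.2 times in the IP libraries. For these 2 pairs the ratio stood higher in every IP library than in every Input. Vamp3 and Snap23 were already among the members called lower, so these 2 ratios largely restate those calls. No share over other pairs of genes was computed. Within the presynaptic genes, the ratio of Syn1 to Syn2 was 1.39, 1.27 and 1.69 in the Inputs and 1.93, 1.76 and 2.26 in the IP libraries. The ratio of Syt2 to Syt1 was 0.0553, 0.0689 and 0.0679 in the Inputs and 0.105, 0.0865 and 0.125 in the IP libraries. That of Cplx1 to Cplx2 was 3.801, 3.81 and 2.32 in the Inputs and 4.23, 5.99 and 3.92 in the IP libraries. These 3 ratios did not overlap between the fractions either. Vamp1 over Vamp2, Sv2a over Sv2b and Rab3a over Rab3c overlapped.

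**Figure D4:**
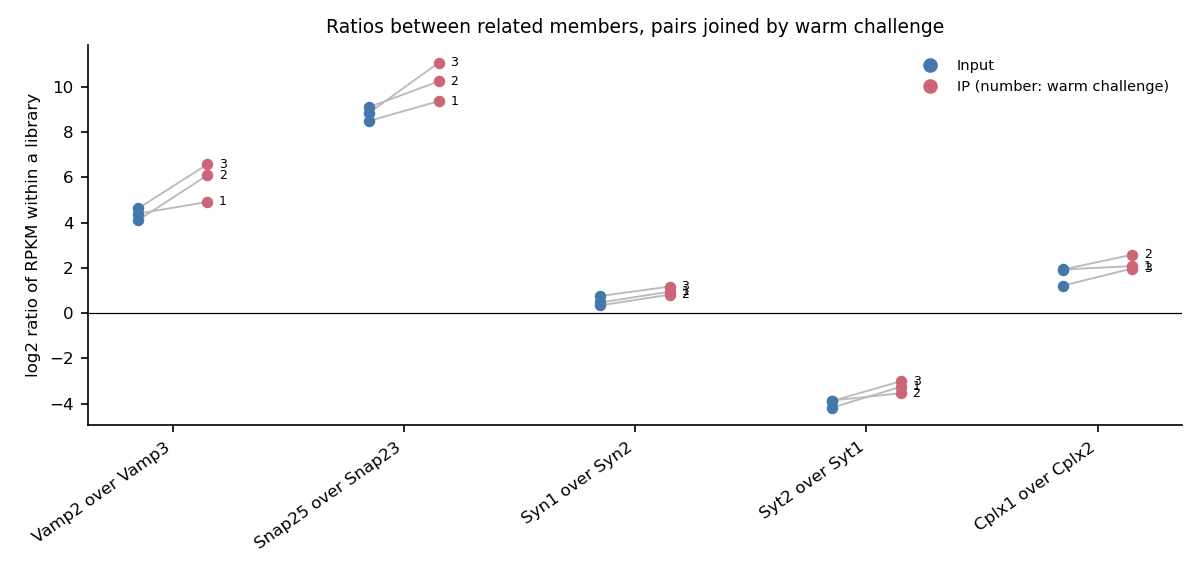
Log2 ratio of the RPKM of 2 related members within each library (y axis), for 5 of the 8 pairs of genes, with Input (blue) and IP (red) joined by warm challenge. The 5 pairs shown are the ones whose IP points lie above all Input points, so this separation and the rise of each line follow from the choice. Vamp1 over Vamp2, Sv2a over Sv2b and Rab3a over Rab3c, which overlapped, are not shown. The rise of Vamp2 over Vamp3 is smaller in warm challenge 1 than in the other 2.

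Markers of cell types were set beside the members, and the lists did not all go the same way. Of 12 oligodendrocyte markers 9 were lower in IP and 0 higher by limma, against 3.29% and 0.892% of all genes, with a median fold of -1.94. Their summed level was 1143 to 1269 RPKM in the Inputs and 388 to 568 RPKM in the IP libraries. Of 10 astrocyte markers 0 were called by limma (4 lower and 0 higher at an unadjusted p under 0.05, against 19.3% and 5.04% of all genes). Their median fold was -0.48, with sums of 314 to 428 and 294 to 320.1 RPKM. Among microglia markers 5 were tested and 0 called (1 lower at an unadjusted p under 0.05, median -0.49), and their 9 listed genes summed to 12.8 to 31.1 and 9.24 to 16.1 RPKM. Endothelial cells had Egfl7 alone tested (log2 fold -0.55). Of the red blood cell markers 3 of 3 tested were higher by limma, against 0.892% of all genes, with log2 folds of 2.90 to 3.26. Their 4 listed genes summed to 14.1 to 50.3 RPKM in the Inputs and 202 to 567 RPKM in the IP libraries. Of 8 neuron markers 0 were called by limma (3 higher and 0 lower at an unadjusted p under 0.05, against 5.04% and 19.3% of all genes). Their median fold was 0.41, with sums of 1026 to 1184 and 1322 to 1643 RPKM. The part of these shifts in the lower level of Vamp3, Snap23, Stx17, Stxbp2, Stxbp3a, Rab31 and Rab33b was not tested. Whether the IP took RNA from fewer cells of a type or less RNA per cell cannot be told apart.

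**Figure D5:**
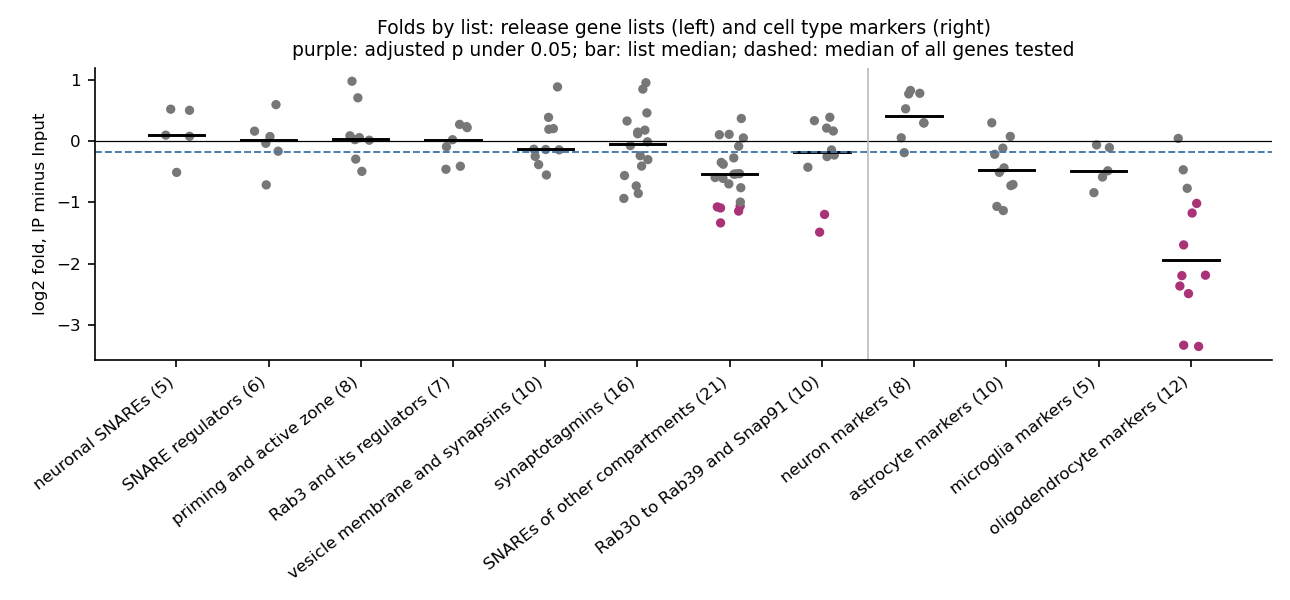
Log2 fold (IP minus Input, y axis) of each gene tested in the 8 member lists (left of the grey line) and in 4 lists of cell type markers (right), with the number of genes in parentheses, called genes in purple, a bar at the list median and the median of all genes dashed. The endothelial and red blood cell lists are not shown. The SNAREs of other compartments have a median of -0.54, and the presynaptic lists lie between -0.14 and 0.09. The medians of the markers are -0.48 for astrocytes and -0.49 for microglia, with 0 called in each, and -1.94 for oligodendrocytes. A link between these medians was not tested.

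Other genes of the release cycle, listed by textbook role, held 1 lower and 0 higher of 76 tested by limma, against 3.29% and 0.892% of all genes, with 15 lower and 4 higher at an unadjusted p under 0.05, against 19.3% and 5.04%. The lower one was Sh3gl3 (endophilin A3), an endocytic membrane-bending protein, with a log2 fold of -1.06 (limma adjusted p = 0.0492). This call ended after median scaling (adjusted p = 0.0994), with no filter, with a pseudocount of 0.1 and without the variance trend, and it held in 1 of 6 omissions, that of IP 1. Among 27 endocytosis genes the folds ran from -1.11 for Ston2 to 1.17 for Cltc, the clathrin heavy chain (mean 70.0 RPKM in Input and 166 RPKM in IP, limma adjusted p = 0.0542). Among 23 further active zone genes the lowest fold was -1.03 for Pclo, a giant scaffold, and the highest 0.65 for Cadps, a priming factor of dense core vesicles. Of 9 genes that recycle SNAREs, Napb, a cofactor of the SNARE-disassembling ATPase Nsf, had the lowest fold (-0.70) and the chaperone gene Hspa8 the highest (0.60). Of 17 further vesicle membrane genes, Sypl, a synaptophysin relative of non-neuronal cells, had the lowest fold (-0.96). Slc32a1, which loads vesicles with GABA, had the highest (0.74, limma adjusted p = 0.0975). Without IP 1, 9 of the 76 were lower and 2 higher, against 10.2% and 3.62% of all genes then tested.

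Promoters of the members were read from RefSeq (build GRCm38.p6) by symbol, and 66 of 85 symbols matched. The 250 bases before the annotated start are shown for 3 of the genes lower in IP, for Sv2a, and for Syn1, a textbook target of the neuronal repressor REST. Capitals mark GC boxes (GGGCGG), the cAMP response element (TGACGTCA) and the left part of the REST element RE1 (TTCAGCACC), on either strand; no marked motifs overlap.
Snap23 (chr2:120567421-120567670, plus strand): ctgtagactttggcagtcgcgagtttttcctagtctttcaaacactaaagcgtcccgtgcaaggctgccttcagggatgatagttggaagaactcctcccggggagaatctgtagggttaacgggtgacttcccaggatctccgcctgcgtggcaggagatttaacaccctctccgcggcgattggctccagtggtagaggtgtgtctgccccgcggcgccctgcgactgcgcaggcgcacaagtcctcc
Stx17 (chr4:48124669-48124918, plus strand): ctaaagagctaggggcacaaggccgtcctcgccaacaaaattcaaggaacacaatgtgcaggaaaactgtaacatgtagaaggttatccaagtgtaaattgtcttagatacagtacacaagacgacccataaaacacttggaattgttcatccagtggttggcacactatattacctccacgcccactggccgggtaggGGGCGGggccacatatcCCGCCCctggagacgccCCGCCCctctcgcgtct
Stxbp2 (chr8:3630859-3631108, plus strand): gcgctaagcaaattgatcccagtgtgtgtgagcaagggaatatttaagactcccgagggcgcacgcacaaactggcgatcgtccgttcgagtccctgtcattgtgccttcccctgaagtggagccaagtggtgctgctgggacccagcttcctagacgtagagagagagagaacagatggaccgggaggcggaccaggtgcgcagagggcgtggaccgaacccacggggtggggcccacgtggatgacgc
Sv2a (chr3:96180977-96181226, plus strand): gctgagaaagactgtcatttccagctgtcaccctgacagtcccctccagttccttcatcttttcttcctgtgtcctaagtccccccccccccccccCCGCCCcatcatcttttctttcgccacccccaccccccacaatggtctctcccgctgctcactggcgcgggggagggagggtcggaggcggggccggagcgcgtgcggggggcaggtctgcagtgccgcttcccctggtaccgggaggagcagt
Syn1 (chrX:20920919-20921168, minus strand): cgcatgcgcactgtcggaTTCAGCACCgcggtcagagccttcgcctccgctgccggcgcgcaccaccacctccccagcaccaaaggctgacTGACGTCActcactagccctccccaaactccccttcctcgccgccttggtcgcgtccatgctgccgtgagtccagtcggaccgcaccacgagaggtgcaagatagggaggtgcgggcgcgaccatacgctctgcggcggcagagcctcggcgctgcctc

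A GC box stood in 51 of the 66 members matched (77.3%), against 35.4% of 27025 genes with a promoter of the same length. Those 27025 include genes absent from the deposited table. No share among the genes it lists was computed, so whether the contrast is particular to release genes was not tested. It stood in 33 of 38 presynaptic genes, in 13 of 20 SNAREs of other compartments, and in 3 of the 5 matched genes that were lower in IP. Stx17 held 3 and Sv2a 1, and Snap23 and Stxbp2 none. The cAMP response element and the left part of RE1 were each found in Syn1 alone among the members, against 1.77% and 0.348% of all genes. The AP-1 site (TGANTCA) was found in Syt2 and Rab34, against 7.82% of all genes. The CCAAT box (CCAAT) stood in 19 of the 66 members (28.8%), against 37.5% of all genes, and the right part of RE1 in 0 of the 66, against 0.118%. A match describes letters in this window only.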

How the data were processed

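RNA of 6 libraries was analysed, 3 Inputs and 3 IP. The authors deposited 1 table of linear RPKM per gene, with 1 column per library, per the file headers. Per the submitters' processing notes, reads were placed on mm9; the aligner and counter are not given in the sources used. Every listed value exceeds 0.1 RPKM (lowest 0.101), so genes at or below that level in any library are missed. All 13724 entries were read, and entries sharing a symbol were kept apart. Values were analysed as log2(RPKM + 1) with limma 3.58.1 (R 4.3.3, mean-variance trend, two-sided, no block), which was tested on simulated data. Tables and plots were made in Python 3.11.15 (pandas 2.3.3, numpy 2.4.6, matplotlib 3.10.9). The members, lists and tests were chosen with earlier results of these data known. By rule, members called with or without the block, all presynaptic members, the 2 highest and 2 lowest folds of the other member lists, and the extremes and calls of the other release lists are named; members named beyond it were chosen after their values were seen. Values of some members are not reported here, though list counts and medians include them. Depth is unknown.

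The labels number each Input and IP by the warm challenge it came from, and pairs were formed by this number. The main fit did not use the pairing. Deviations from the group means correlated across genes by 0.055, 0.61 and 0.27 within pairs 1, 2 and 3. Between an Input and an IP of different warm challenges the correlations ran from -0.52 to 0.18, so pair 1 did not stand out. The blocked fit is an alternative. Other alternatives changed the pseudocount, filter, scaling, trend and libraries. The ratios between members were added after the values had been seen.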

Additional observations from a re-analysis of the deposited data

How the results depend on the processing

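With the warm challenge as a replicate block, 7 members were lower and 1, Sv2a, higher in IP, and the block changed no other call of a member. It called 656 of all genes instead of 516. With the block and median scaling together, 2 members were higher (Sv2a and Syt2) and 3 lower, of which 1 lower after leaving out Rab30 to Rab39b and Snap91, and 2 of the other release genes were higher and 0 lower. Median scaling gave 1 member higher and 3 lower (1 lower without the other families), 217 calls of all genes and 0 among other release genes. Quantile normalization gave 0 higher and 3 lower (1 without the other families), 253 calls of all genes and 0 among other release genes. The 0 other release genes also held with a pseudocount of 0.1, no filter and no trend. These settings, a pseudocount of 5 and a filter of 5 RPKM kept 7 members lower and 0 higher. Single omissions left 0 to 8 members lower and 0 to 3 higher, 0 to 6 and 0 to 2 without the other families, 0 to 9 other release genes lower and 0 to 2 higher, and 21 to 1693 calls of all genes.

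The median fold of the members was -0.14 and became -0.11 with a pseudocount of 5, -0.12 with no filter, -0.077 with a filter of 5 RPKM, 0.039 with median scaling, with or without the block, and -0.019 with quantile normalization. It ranged from -0.19 to -0.062 over omissions. No call turned its direction in any setting, while members that were not called did change sign: 10 after median scaling, with or without the block, 6 after quantile normalization, 14 without IP 3, and 5 to 7 in the other omissions. The cause was not tested. RPKM without counts gives no depth per value, and omissions leave 5 libraries.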
